A study of Mus musculus with 4 samples.

Results

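The mouse major histocompatibility complex (MHC, called H2) was followed in Osr1+ limb mesenchymal cells at E13.5 with and without functional Osr1. Its members were all gene symbols in the count tables that start with H2-, plus B2m, Tap1, Tap2, Tapbp, Cd74 and Ciita, which gave 48 of 23284 genes. Symbols were chosen by name, but the group was taken up because its expression between these same genotypes was already known, and H2-T10 had been seen among the strongest falls. The genotype difference of each member is therefore a description and carries no test here. The members comprised 2 classical class I genes (H2-K1 and H2-D1), 27 nonclassical class I genes (the Q, T and M series and H2-Bl), the class I pseudogene H2-K2, 10 class II genes, 4 accessory genes of the class I route, 2 accessory genes of the class II route, and 2 genes that carry an H2 symbol without encoding an MHC chain (H2-Ke2 and H2-Ke6). H2-T10, H2-Bl and H2-Ea-ps, which the reference annotation types as polymorphic pseudogenes, were counted by symbol among the nonclassical and class II genes.

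RNA was sequenced from GFP-positive live cells that were sorted from the limbs of C57BL/6J embryos at E13.5. There were 2 embryos with the genotype Osr1 GCE/+ and 2 with GCE/GCE. The GCE allele is a knock-in of eGFP and CreERt2 into the Osr1 locus, so both groups carry it. The GCE/+ cells keep 1 intact Osr1 copy and are called control cells below, and the GCE/GCE cells, called mutant cells, have none. Within each genotype, values are given for replicate 1 and then replicate 2. The sort selects cells in which the Osr1 locus is active, and the number of GFP copies differs between the groups.

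Classical class I molecules are heavy chains that pair with beta-2-microglobulin, the product of B2m, and carry peptides from the cell's own proteins to the surface for inspection by CD8+ T cells. The transporter Tap1-Tap2 moves these peptides into the endoplasmic reticulum, where tapasin (Tapbp) helps to load them. Nonclassical class I molecules are similar in build but less variable, and some are recognised by natural killer cells or gamma delta T cells. Class II molecules pair an alpha and a beta chain, travel with the invariant chain Cd74, exchange their peptide with the help of H2-DM, and are found mainly on macrophages, dendritic cells and B cells, where the coactivator Ciita switches their genes on.

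H2-T10 and H2-T22 are nonclassical genes whose products are ligands of gamma delta T cell receptors, and they are described first because the widest difference between the genotypes lay in H2-T10 while H2-T22 resembles it closely. Their coding sequences in the GENCODE M21 transcripts (GRCm38) were identical at 1099 of 1134 aligned bases (96.9%). The longest run without a difference between the pair was 134 bases. Of the 50-base stretches of the H2-T10 transcript, which is the length of 1 sequenced read, 40.2% were also found in H2-T22, and 37.9% of those of H2-T22 were found in H2-T10. For comparison, the classical pair H2-K1 and H2-D1 shared 91.4% of aligned coding bases and 6.94% of the 50-base stretches of H2-K1. Annotation of the C57BL/6 reference types H2-T10, on chromosome 17 from 36115876 to 36121465 on the minus strand, as a polymorphic pseudogene, and types H2-T22, from 36037128 to 36042747 on the same strand, as protein-coding.

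The 250 bases upstream of the start site are shown for H2-K1, H2-Q4 and B2m, which were among the class I genes of highest level per length and had lower values in the mutants, and for H2-T22, which had higher ones. Sequences and positions are those of RefSeq on GRCm38.p6, in which 35 of the 48 members had an entry. H2-T10 had none, so its upstream sequence was not compared with that of H2-T22. Capitals mark 4 motifs known from MHC promoters, searched on both strands, which were chosen after the promoters had been seen and did not overlap one another in these 4 sequences. They were the core of the interferon-stimulated response element (GTTTCNNTT), the Y box or inverted CCAAT box (ATTGG), a core of the X box (GNNACNGAT) and a kappa B core (GGGGATT).
H2-K1 (chr17:34000348-34000597, minus strand): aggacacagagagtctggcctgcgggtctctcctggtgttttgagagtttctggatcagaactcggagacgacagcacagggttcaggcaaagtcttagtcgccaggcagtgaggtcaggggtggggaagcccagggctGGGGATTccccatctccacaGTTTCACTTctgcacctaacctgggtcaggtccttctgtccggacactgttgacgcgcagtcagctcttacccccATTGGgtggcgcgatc
H2-Q4 (chr17:35379367-35379616, plus strand): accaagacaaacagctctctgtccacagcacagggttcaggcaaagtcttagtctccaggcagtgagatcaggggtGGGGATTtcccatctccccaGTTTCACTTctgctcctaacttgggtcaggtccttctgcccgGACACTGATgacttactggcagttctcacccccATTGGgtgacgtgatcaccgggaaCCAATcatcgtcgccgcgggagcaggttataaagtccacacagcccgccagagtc
B2m (chr2:122147437-122147686, plus strand): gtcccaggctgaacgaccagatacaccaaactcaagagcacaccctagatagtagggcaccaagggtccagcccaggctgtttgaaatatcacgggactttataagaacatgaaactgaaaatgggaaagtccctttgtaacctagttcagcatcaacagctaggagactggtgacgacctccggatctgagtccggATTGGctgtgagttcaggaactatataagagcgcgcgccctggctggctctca
H2-T22 (chr17:36042743-36042992, minus strand): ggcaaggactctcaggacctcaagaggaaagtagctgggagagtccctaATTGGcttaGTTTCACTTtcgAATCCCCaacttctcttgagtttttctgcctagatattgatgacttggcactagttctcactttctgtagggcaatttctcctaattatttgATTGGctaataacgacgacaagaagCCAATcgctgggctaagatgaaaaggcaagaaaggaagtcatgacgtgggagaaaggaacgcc
H2-D1, which is not printed, and H2-Q4 held all 4 motifs in the same order. A kappa B core lay at -171 and -174 and a response element core at -151 and -154. An X box core lay at -109 and -112 and a forward Y box at -76 and -79. Positions are counted from the start site to the motif's leading base. H2-Q6, with 15 to 26 counts per sample, and H2-Q7, with 0 in all samples, held the same 4 motifs in that order. H2-K1 held the same order without a match to the X box letters, and B2m held a Y box at -53. H2-T22 held 3 Y boxes, a response element core at -192 and a reversed kappa B core at -180. Over all 32851 RefSeq promoters, 33.8% held a Y box, 6.53% the X box core, 4.95% the response element core and 2.76% the kappa B core within 250 bases upstream. Among the members, counting a gene once if any of its start sites had a match, 31 of 35 held a Y box, 16 the X box core, 13 the response element core and 10 the kappa B core. By class, 11 of 22 class I chains and 1 of 8 class II chains held the response element core, and 19 of 22 and 8 of 8 held a Y box. A match is a run of letters and was not shown here to be bound.

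Between 52121596 and 61402140 fragments were counted per sample, so that 3 counts correspond to 0.0490 to 0.0574 CPM (counts per 1000000 fragments, with the library size scaled by TMM). Osr1 itself was at 81.9 and 79.1 CPM in the controls and at 11.9 and 13.9 CPM in the mutants and was called lower. The samples carried the mesenchymal markers of the label, with Pdgfra between 833 and 977 CPM and Col1a1 between 2626 and 3683 CPM. Xist was at 1142 CPM in GCE/GCE replicate 1 and at 0.572 to 2.63 CPM in the other 3, so that library stands apart. The member calls and the class I median are also given without it, but the counts for other gene lists are not. Genes were tested with edgeR after a filter on low counts that left 15645 genes, and a gene is said to be called when its Benjamini-Hochberg adjusted p over all of these was under 0.1.

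Of the 48 members, 26 passed the filter on low counts, 12 had between 1 and 37 counts summed over the 4 samples without passing, and 10 had no count at all. Per kilobase of transcript, B2m was the most abundant member, with 100.8 and 89.1 CPM per kb in the control cells and 85.3 and 79.5 CPM per kb in the mutant cells. H2-D1 and H2-K1 followed among the MHC chains. Class II chains were low, and the pair of H2-Aa and H2-Ab1, which form the I-A molecule, had at most 22 and 10 counts in a sample.

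**Figure D1:**
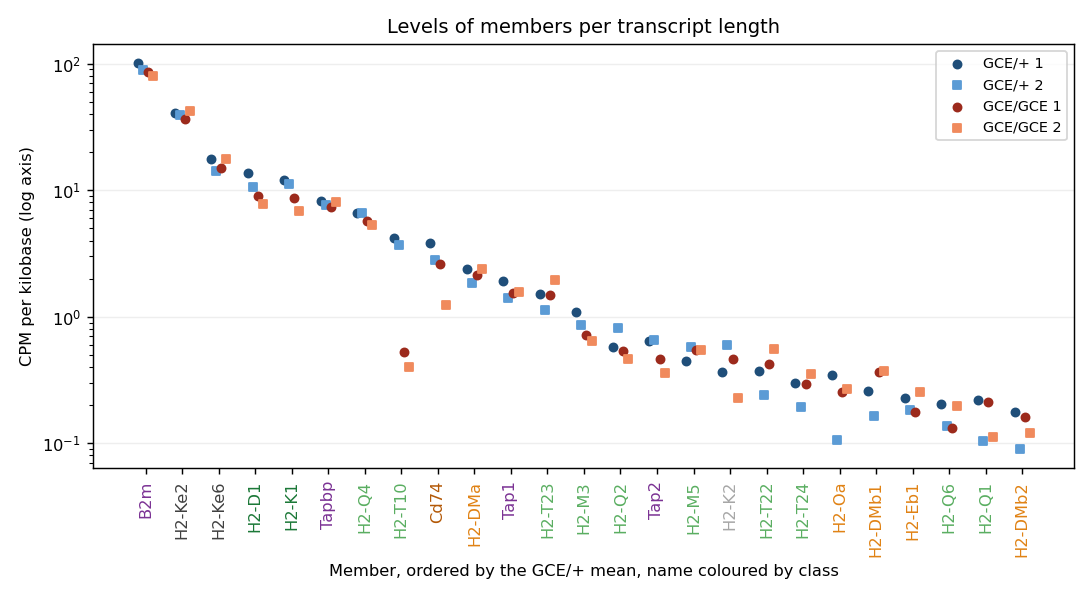
CPM per kilobase of the longest GENCODE transcript (log axis) for the 25 members that passed the filter and had an annotated length, ordered by the mean of both GCE/+ samples. Each point is a sample. B2m lies highest at 79.5 to 100.8 CPM per kb, H2-D1, H2-K1, Tapbp and H2-Q4 lie between 5 and 14, and most nonclassical and class II chains lie under 1. The H2-T10 points of the GCE/GCE samples lie apart from those of the GCE/+ samples.

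In the control cells the order of levels per length began with B2m at a mean of 94.9 CPM per kb. The next members, H2-Ke2 at 40.0 and H2-Ke6 at 16.0 CPM per kb, encode a prefoldin subunit and a hydroxysteroid dehydrogenase, proteins outside antigen presentation whose genes lie in the locus. H2-D1 with a mean of 12.1 and H2-K1 with 11.6 CPM per kb could not be separated, since the H2-D1 samples were at 13.6 and 10.6 and the H2-K1 samples at 12.0 and 11.2.

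Tapbp at 7.91 and H2-Q4 at 6.61 CPM per kb came next, and their samples did not overlap. H2-T10 had a mean of 3.96 CPM per kb in the control cells and overlapped Cd74, which had 3.30. H2-DMa with 2.10 and Tap1 with 1.66 CPM per kb overlapped as well. H2-T23 had 1.32 and H2-M3 0.975 CPM per kb, and the members below them lay close together. In the mutant cells H2-T10 had a mean of 0.460 CPM per kb, below H2-M5 with 0.545. It overlapped H2-T22, which had a mean of 0.489. The mutant samples were at 0.523 and 0.397 for H2-T10 and at 0.421 and 0.557 for H2-T22.

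Partner genes were unequal in level per length. The ratio of B2m to the sum of H2-K1 and H2-D1 was 3.95 and 4.08 in the control cells and 4.81 and 5.45 in the mutant cells. The ratio of Tap1 to Tap2, the chains of the peptide transporter, was 3 and 2.14 in the controls and 3.37 and 4.31 in the mutants. Both ratios were higher in the 2 mutant samples than in the 2 control samples, without overlap. The nearest values of Tap1 to Tap2 were 3 and 3.37. Such separation is frequent with so few samples: 19.1% of all genes tested lay below in both mutant samples and 19.2% above. For H2-DMa over the sum of its possible partner chains H2-DMb1 and H2-DMb2 the ratio was 5.45 and 7.22 in the controls and 4.06 and 4.84 in the mutants. Its denominator rests on only 12 to 32 counts of H2-DMb1 and 7 to 16 of H2-DMb2 per sample. For Cd74 over the sum of H2-Aa and H2-Ab1 the ratio was 21.2 and 12.2 in the controls and 5.64 and 7.48 in the mutants. That denominator rests on 12 to 31 counts per sample. The H2-DMa and Cd74 ratios were lower in the mutant samples than in the control samples, also without overlap.

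Between the genotypes, 1 of the 26 tested members was called lower in the mutant cells and 0 were called higher. Over all genes tested, 0.927% were called lower and 0.895% higher. The member called was H2-T10, and DESeq2 called H2-K1 and H2-D1 lower as well, where 1.69% of 14707 genes were called lower. By position of the samples, 10 members had both GCE/GCE values below both GCE/+ values and 2 had both above, while 19.1% and 19.2% of all genes tested did. Since these differences led to the choice of the group, the counts are given without further reading. At an unadjusted p under 0.05, edgeR gave 5 members lower and 0 higher, beside 761 and 879 of the 15645 genes tested. DESeq2 called 0 members higher beside 1.77% of its genes. Without GCE/+ replicate 1 or GCE/GCE replicate 2, 1 member was called lower (H2-T10), beside 0.541% and 1.04% of all genes tested. When GCE/+ replicate 2 was left out, 3 members were called lower (H2-T10, H2-K1 and H2-D1) beside 1.98% of all genes tested. When GCE/GCE replicate 1 was left out, 4 of the 26 members were called lower (these and Cd74) beside 2.87% of all genes tested. H2-Q10 was called in that fit too, but it passed the filter there through the control samples in which it was high, so nothing is read from it.

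**Figure D2:**
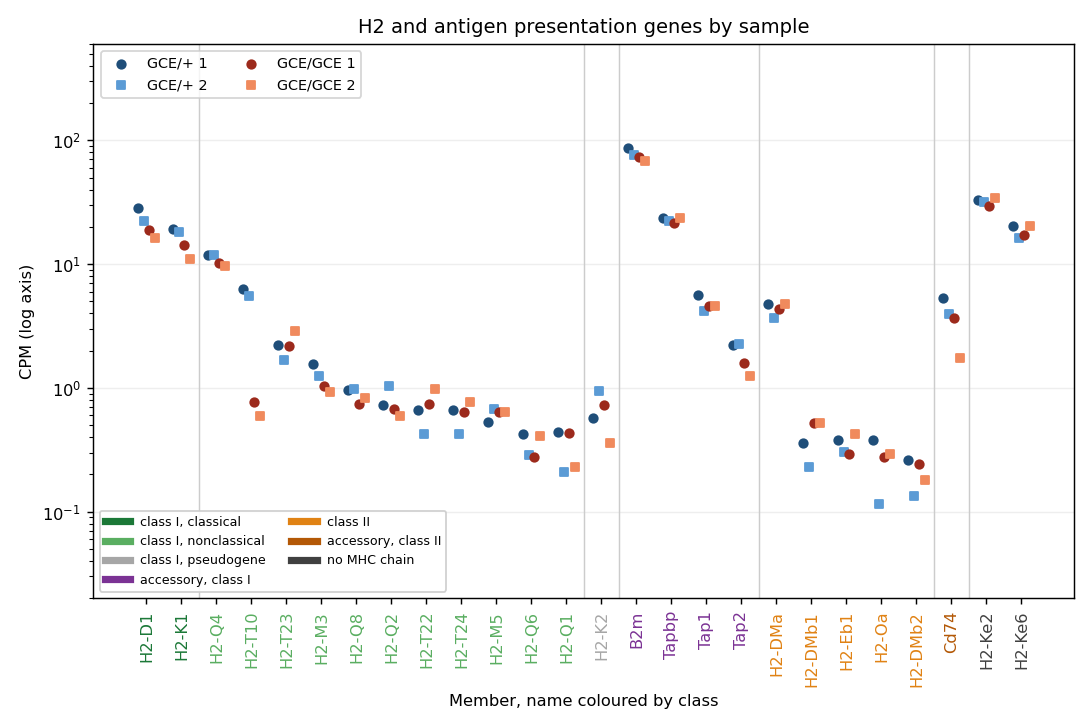
CPM (log axis) of the 26 members that passed the filter on low counts in each of the 4 samples, grouped by class and ordered by mean CPM within a class. CPM is not corrected for length, so it should be compared between samples and not between genes. H2-T10 falls from 6.24 and 5.49 CPM to 0.775 and 0.588 CPM, and H2-D1, H2-K1, H2-Q4, B2m, Tap2 and Cd74 have both GCE/GCE points below both GCE/+ points.

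H2-T10 had 380 and 287 counts in GCE/+ replicates 1 and 2 and 45 and 36 counts in GCE/GCE replicates 1 and 2. This amounts to 6.24 and 5.49 CPM against 0.775 and 0.588 CPM, so the groups did not overlap and the samples of each genotype lay close together. The log2 fold change was -3.11 (SE 0.22), or 8.61-fold lower, and it was called. Leaving out each sample in turn kept it between -3.32 and -2.92. The samples are those in which the fall had been seen, so this adds no test.

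The close relative H2-T22 had low values in all samples. It was at 0.657 and 0.421 CPM in the control cells and at 0.741 and 0.980 CPM in the mutant cells, with both GCE/GCE values higher, a log2 fold change of 0.66 (SE 0.33) and no call. The level of H2-T10 per length relative to H2-T22 was 11.3 and 15.5 in the control cells and 1.24 and 0.713 in the mutant cells. H2-T9, a further near relative, was listed at 0 in all samples. As reads that fit both genes cannot be placed with certainty, the counts of H2-T10, H2-T22 and H2-T9 were summed, which gave 420, 309, 88 and 96 counts in the order above. The sum had a log2 fold change of -2.05 (SE 0.19) and was called too. H2-T10 supplied 380, 287, 45 and 36 of these counts, so the call is not independent of its own. Summing does not bring back fragments that the counting may have lost.

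H2-T23, the gene of the Qa-1 molecule that presents to natural killer cell receptors, had 2.22 and 1.66 CPM in the control cells and 2.19 and 2.89 CPM in the mutant cells. The groups overlapped and the log2 fold change was 0.38 (SE 0.24), not called. Its neighbour H2-T24, with 40, 22, 37 and 47 counts, had a log2 fold change of 0.37 (SE 0.33) with overlapping groups. The 3 tested T genes other than H2-T10 thus had fold changes above 0, without a call.

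Among the Q genes, H2-Q4 had 11.8 and 11.9 CPM in the control cells and 10.2 and 9.57 CPM in the mutant cells. Its groups did not overlap, with a log2 fold change of -0.26 (SE 0.13) and no call. H2-Q8 had 59 and 51 counts in the control cells and 43 and 51 counts in the mutant cells (log2 fold change -0.30, SE 0.26), and H2-Q2 had 44 and 54 against 39 and 36 counts (-0.47, SE 0.30). Both had both GCE/GCE samples below in CPM. H2-Q6 had 26, 15, 16 and 25 counts and H2-Q1 had 27, 11, 25 and 14, and they overlapped with fold changes of -0.07 and -0.03 on the log2 scale. Of the 50-base stretches of H2-Q4, 39.2% were found in other transcripts, so its count is uncertain where reads fit more than 1 gene. H2-Q7 was listed at 0, although its coding sequence shared 95.4% with that of H2-Q6. H2-Q9 had no count either. H2-Q10 had 14, 7, 7 and 0 counts and did not pass the filter.

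H2-M3, which presents formylated bacterial peptides, had 1.56 and 1.24 CPM in the control cells and 1.03 and 0.931 CPM in the mutant cells. Both GCE/GCE values were below, with a log2 fold change of -0.52 (SE 0.25) that was not called. H2-M5 had 32, 35, 37 and 39 counts and overlapped, with a log2 fold change of 0.10 (SE 0.30). The other members of the M series were near or at 0. H2-M10.2 and H2-M2 had 30 and 28 counts over the 4 samples, H2-M9 and H2-M11 had 2 and 1, and H2-M1, H2-M10.1, H2-M10.3, H2-M10.4, H2-M10.5 and H2-M10.6 had 0. H2-Bl had 2 to 4 counts per sample, and H2-T3, the thymus leukemia antigen gene, had 7 counts in all, of which 6 came from GCE/+ replicate 1.

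Both classical genes had lower values in the mutants, by similar amounts. H2-K1, on chromosome 17 from 33996017 to 34000347, had 19.4 and 18.2 CPM in the control cells and 14.1 and 11.1 CPM in the mutant cells. H2-D1, from 35262730 to 35267499, had 28.6 and 22.3 CPM in the control cells and 18.9 and 16.2 CPM in the mutant cells. In neither gene did the groups overlap, and GCE/GCE replicate 2 was the lowest sample in both. The log2 fold changes were -0.58 (SE 0.14) and -0.53 (SE 0.14), which were not called by edgeR and were called lower by DESeq2. Leaving out each sample in turn moved that of H2-K1 between -0.77 and -0.41 and that of H2-D1 between -0.70 and -0.35. The level of H2-K1 per length relative to H2-D1 was 0.881 and 1.06 in the control cells and 0.970 and 0.887 in the mutant cells. The pseudogene H2-K2 overlapped, with 35 and 49 counts against 42 and 22 counts.

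Summed over the 29 classical and nonclassical class I genes, the level was 74.7 and 65.3 CPM in the control cells and 51.95 and 46.01 CPM in the mutant cells. Without H2-T10 the sums were 68.5, 59.8, 51.2 and 45.4 CPM, so the groups stayed apart. Of the 13 of these genes that passed the filter, 9 had log2 fold changes below 0, beside 7676 of the 15645 genes tested. The 2 classical genes had a median of -0.55. The 11 nonclassical genes had a median of -0.07, with 7 below 0 and 4 above. Over both classes together the median was -0.26, beside 0.00 over all genes tested. With no filter on low counts it was -0.39 over the 20 of these genes that had any count. Without GCE/GCE replicate 1 the median over both classes was -0.55.

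B2m, on chromosome 2 from 122147686 to 122153083, had 86.7 and 76.6 CPM in the control cells and 73.4 and 68.4 CPM in the mutant cells. The groups did not overlap, but the log2 fold change of -0.20 (SE 0.09) was small and not called. Tap2 had 2.20 and 2.26 CPM in the control cells and 1.58 and 1.24 CPM in the mutant cells, again without overlap, with a log2 fold change of -0.66 (SE 0.22) and no call. Its partner Tap1 overlapped, with 5.67 and 4.15 CPM against 4.58 and 4.59 CPM and a log2 fold change of -0.10 (SE 0.19), which was 0.14 without GCE/+ replicate 1. Tapbp overlapped too, with 23.6 and 22.2 CPM against 21.4 and 23.6 CPM and a log2 fold change of -0.03 (SE 0.11). So did the 2 genes of the locus that encode no MHC chain. H2-Ke2 had 33.1 and 31.5 CPM against 29.6 and 34.1 CPM (log2 fold change -0.02, SE 0.10), and H2-Ke6 had 20.1 and 16.1 CPM against 17.1 and 20.2 CPM (0.04, SE 0.14). Of the 50-base stretches of H2-Ke6, 62.9% also lay in the overlapping gene Gm20427, so its count is uncertain.

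**Figure D3:**
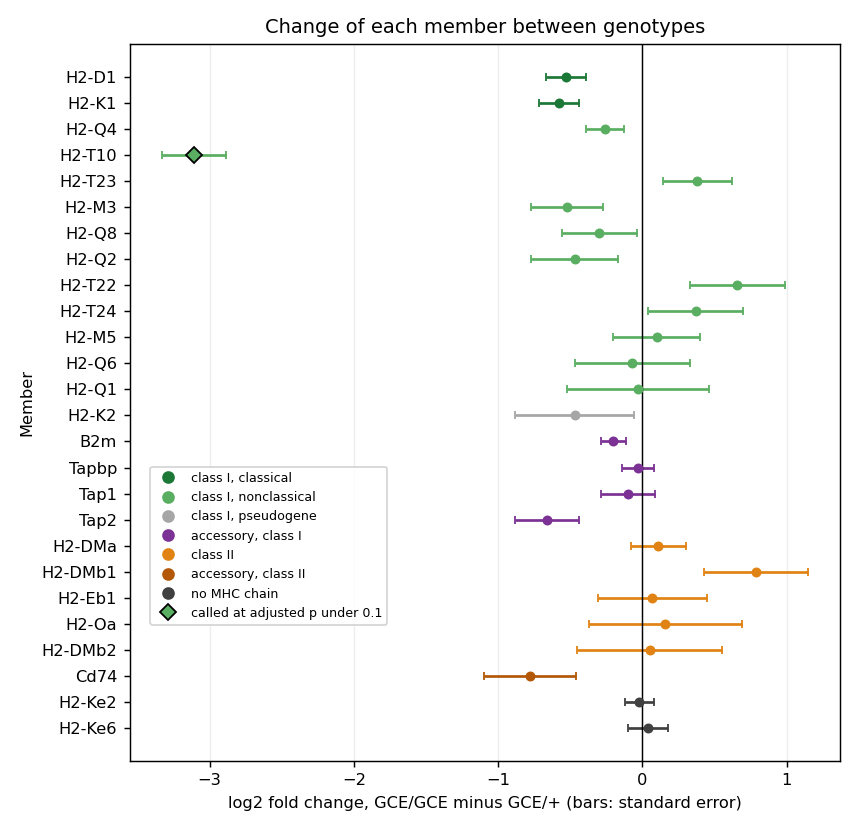
Log2 fold change, GCE/GCE minus GCE/+, of the 26 tested members with the standard error as bars, coloured by class. H2-T10 at -3.11 is the diamond and the member called by edgeR. The remaining members lie between -0.78 (Cd74) and 0.79 (H2-DMb1).

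None of the 5 class II chains tested was called by edgeR, with 0 at an unadjusted p under 0.05, nor were the 2 of them that DESeq2 tested, and their log2 fold changes lay between 0.05 and 0.79. H2-DMa, which helps to exchange peptides in the endosome, was the highest of them per length, with 4.75 and 3.67 CPM in the control cells and 4.32 and 4.79 CPM in the mutant cells. The groups overlapped and the log2 fold change was 0.11 (SE 0.19). H2-DMb1 had both GCE/GCE values above, with 22 and 12 counts against 30 and 32 counts, and a log2 fold change of 0.79 (SE 0.36) that was not called. H2-DMb2 had 16, 7, 14 and 11 counts, and 27.2% of the 50-base stretches of H2-DMb1 are shared with it. H2-Oa, a chain that restrains H2-DM, had 23, 6, 16 and 18 counts and a fold change of 0.16 (SE 0.53) on the log2 scale.

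The peptide-presenting chains were close to the limit of detection in both genotypes. H2-Eb1 had 23 and 16 counts in the control cells and 17 and 26 counts in the mutant cells, with a log2 fold change of 0.07 (SE 0.38). H2-Ab1 had 10 and 6 against 9 and 8 counts. H2-Aa had 3, 8, 22 and 4 counts, so that GCE/GCE replicate 1 alone was high. H2-Eb2 had 0, 0, 1 and 1 counts, H2-Ea-ps had 1 count in all, which came from GCE/+ replicate 2, and H2-Ob had 0. The median log2 fold change of the 5 tested class II genes was 0.11, and it was 0.57 without GCE/+ replicate 1 and -0.07 without GCE/+ replicate 2, so its direction rests on these samples. Ciita had 4 and 7 against 8 and 10 counts, which is 0.0657 to 0.163 CPM, and did not pass the filter.

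Cd74, the chaperone of the class II chains, had 5.35 and 3.96 CPM in the control cells and 3.69 and 1.75 CPM in the mutant cells, with GCE/GCE replicate 2 well below the other 3 samples. The groups did not overlap, and the log2 fold change of -0.78 (SE 0.32) was not called. It was -0.34 without GCE/GCE replicate 2 and -1.42 without GCE/GCE replicate 1.

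Markers of macrophages and monocytes were lower in the mutants. Both mutant values also lay below both control values in 10 tested members. These were Cd74, H2-T10, H2-K1, H2-D1, H2-Q4, B2m, Tap2, H2-M3, H2-Q2 and H2-Q8. Of the other tested members, 14 overlapped between the groups and 2 had both mutant values above. All 18 markers of the macrophage and monocyte list that were in the tables had both GCE/GCE values below both GCE/+ values, beside 19.1% of all genes tested. Of these markers, 14 were called lower by edgeR and 16 by DESeq2, beside 0.927% and 1.69% of all genes each tested. None was at 0. Summed over the list the level was 444 and 453 CPM in the control cells and 278 and 195 CPM in the mutant cells, with C1qb at 28.5 and 25.6 CPM against 14.2 and 9.78 CPM. Relative to this sum, Cd74 was at 1.21% and 0.874% in the control cells and at 1.33% and 0.895% in the mutant cells, and these values overlapped. As a percent of the control mean, the list was at 62.0% and 43.5% in the mutant cells. H2-K1 was at 75.3% and 59.0%, H2-D1 at 74.5% and 63.9%, and B2m at 89.9% and 83.7%. Like the list, these genes were lower in both mutant samples and lowest in replicate 2. H2-T10 was at 13.2% and 10%, and H2-DMa at 103% and 114%. In bulk RNA, fewer cells of a type and less RNA per cell cannot be told apart, and the part of these cells in the members' values was not tested.

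Of the 21 tested genes in the 6 other lists of cell types outside the mesenchyme, edgeR called 0. Over all genes tested it called 0.927% lower and 0.895% higher. At an unadjusted p under 0.05, 3 were lower and 1 higher, beside 761 and 879 of the 15645 genes tested. DESeq2 called the endothelial receptor gene Tie1 lower (-0.63, SE 0.18, in the edgeR fit) and the muscle gene Ttn higher (0.57, SE 0.14). Over all its genes it called 1.69% lower and 1.77% higher. The endothelial list summed to 109.8 and 89.4 CPM against 90.2 and 75.8 CPM. The dendritic list summed to 5.93 and 6.37 CPM against 5.87 and 4.90 CPM, most of it from Zbtb46 with 4.443 to 5.813 CPM, and Cd209a was at 0. The B cell list summed to 1.96 to 3.14 CPM over the 4 samples, with Cd79a at 78 to 109 counts and Ms4a1 and Pax5 at 2 counts or fewer in each. T and NK cell markers summed to 0.765 to 1.54 CPM, with Cd4 at 28 to 69 counts, Cd3e at 1 or 2 counts and Ncr1 at 0. Erythroid markers summed to 7.603 and 3.996 CPM against 7.596 and 6.501 CPM, and Hba-a1 was at 0. Myogenic markers summed to 45.7 and 53.0 CPM against 58.6 and 52.1 CPM.

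**Figure D4:**
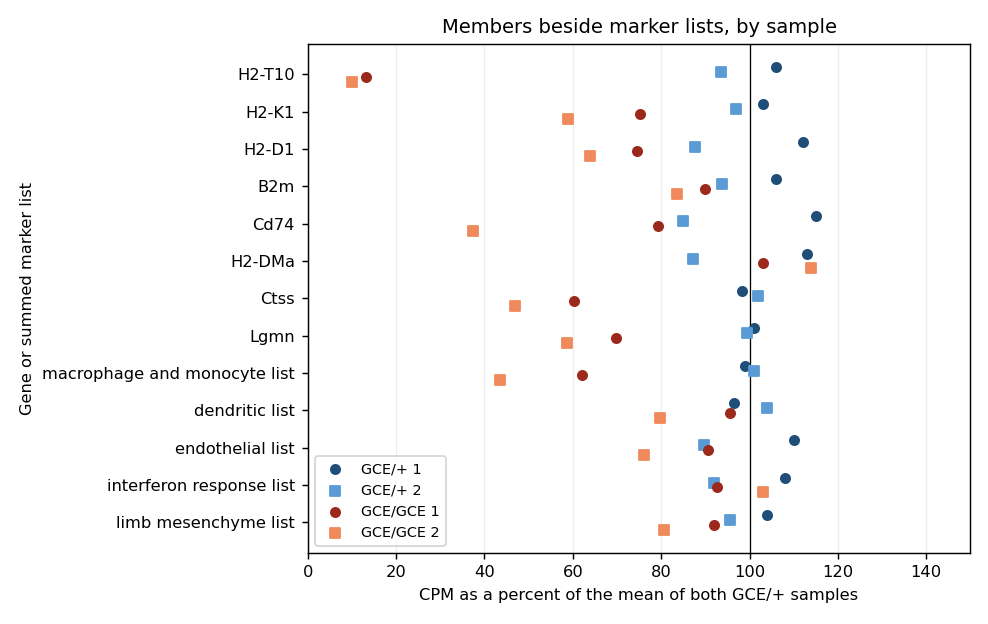
CPM of 6 members, of Ctss and Lgmn and of 5 summed marker lists in each sample, as a percent of the mean of both GCE/+ samples (Osr1 left out of the mesenchyme list). H2-T10 lies at 13.2% and 10% in the mutant cells, the macrophage and monocyte list at 62.0% and 43.5%, Cd74 at 79.2% and 37.5%, H2-K1 at 75.3% and 59.0%, and H2-DMa at 103% and 114%.

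Of the other 29 genes of antigen presentation that were considered, which supply or load peptides, process the invariant chain or control MHC transcription, 2 were called lower and 0 higher by edgeR, beside 0.927% and 0.895% of all genes tested, and their median log2 fold change was -0.11. At an unadjusted p under 0.05, 5 were lower and 1 higher, beside 761 and 879 of the 15645 genes tested. The called genes were Ctss and Lgmn, endosomal proteases that act on the class II route and are abundant in macrophages. Ctss had 18.0 and 18.6 CPM in the control cells and 11.0 and 8.57 CPM in the mutant cells, a log2 fold change of -0.90 (SE 0.14), and Lgmn had -0.64 (SE 0.10). DESeq2 called these and also Ifi30, a lysosomal thiol reductase of antigen processing (-0.49, SE 0.11, in the edgeR fit), and Fcgrt, the chain of the neonatal Fc receptor (-0.61, SE 0.17), beside 1.69% of all its genes. At the upper end were Mr1, an MHC-like molecule that presents vitamin metabolites, with 0.32 (SE 0.13), and Creb1 with 0.14 (SE 0.10), neither of them called. Nlrc5, the class I counterpart of Ciita, was at 0.230 and 0.249 CPM against 0.190 and 0.229 CPM, and the 3 RFX subunits Rfx5, Rfxap and Rfxank, which bind the X box, had fold changes of 0.14, 0.06 and 0.03 on the log2 scale.

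Genes that interferon induces, to which many class I genes belong, overlapped between the genotypes as a sum. They came to 41.4 and 35.3 CPM in the control cells and 35.5 and 39.3 CPM in the mutant cells. Most of this sum came from Stat2, with 24.8 and 23.6 CPM against 25.2 and 23.8 CPM, so it says little about the other genes. Of 12 genes, 1 was called lower by both tools, Rsad2 with a log2 fold change of -1.16 (SE 0.22), and 0 were called higher by either. Over all genes each tested, edgeR called 0.927% lower and 0.895% higher, and DESeq2 1.69% and 1.77%. At an unadjusted p under 0.05 in edgeR, 1 was lower and 1 higher, beside 761 and 879 of the 15645 genes tested. Irf1, which acts on class I promoters in the interferon response, had -0.17 (SE 0.16), without a call.

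Of the members, 42 lie on chromosome 17 between 33915899 and 37483552 of GRCm38, together with 140 other genes of the count tables. Among the 99 of these other genes that were tested, the median log2 fold change was -0.08. By edgeR, 2 of them were called lower and 0 higher, beside 0.927% and 0.895% of all genes tested. They were the cytokine gene Tnf, with 36.2 and 35.0 CPM against 22.7 and 20.6 CPM (-0.72, SE 0.10), and the pseudogene Gm8801, with 11.6 and 11.9 CPM against 3.63 and 2.99 CPM (-1.83, SE 0.16). By DESeq2, 3 were called lower (these and Aif1, which is also in the macrophage list) and 0 higher, beside 1.69% and 1.77% of its genes. At an unadjusted p under 0.05, edgeR gave 6 lower and 2 higher, beside 761 and 879 of the 15645 genes tested. Both GCE/GCE samples were below both GCE/+ samples in 31 of the 99 and above in 5, beside 19.1% and 19.2% of all genes tested.

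H2-T10 took place 133 in the order of these 182 genes and Gm8801 place 120. Between them lie H2-T24, H2-T23 and H2-T22 at places 126 to 128, with fold changes above 0 that were not called, and the class I-like gene Gm11127 at place 130, with 2.45 and 2.68 CPM against 2.27 and 1.85 CPM and a log2 fold change of -0.31 (SE 0.21). Of the tested genes at places 121 to 137, H2-T10 was the one called.

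**Figure D5:**
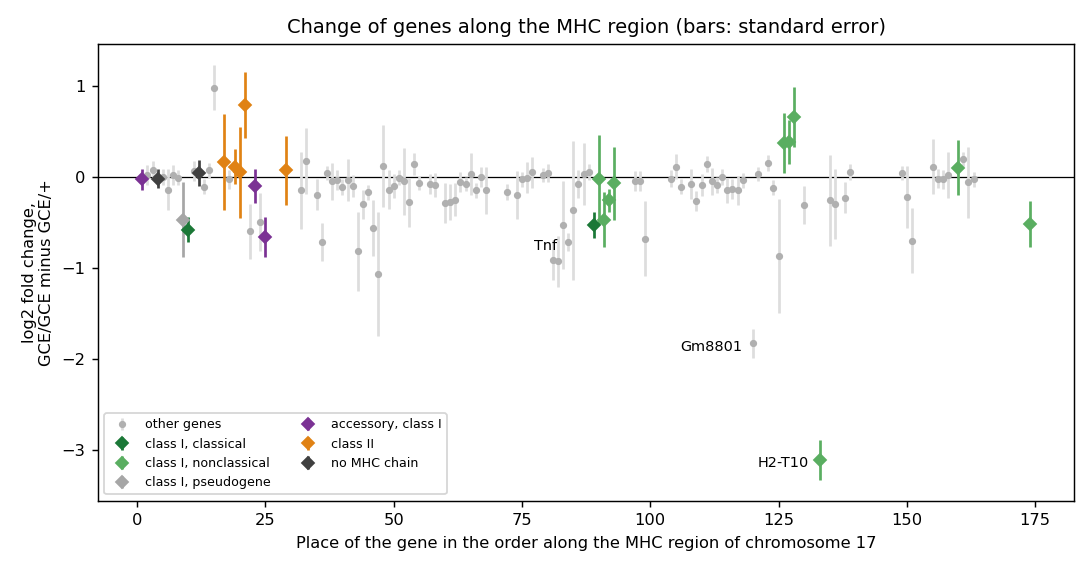
Log2 fold change, GCE/GCE minus GCE/+, of the tested genes in their order along the MHC region of chromosome 17, with the standard error as bars. Diamonds are members coloured by class and grey points are other genes. The 3 named genes were called, and H2-T10 lies lowest at -3.11, next to members of the T series above 0.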

How the data were processed

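Per the labels and the study's methods, the authors sequenced 50-base read pairs, mapped them to mm9 with TopHat2 and counted fragments per gene with HTSeq in its strict intersection mode. They deposited raw counts, 1 whole number per gene symbol and sample, without normalization. Versions are not given in the sources used here. Fragments of near-identical genes may be lost or misplaced by such counting. The library kit does not mark strand, so overlapping genes cannot be told apart.

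Groups were taken from the sample titles. Counts were fitted with edgeR 4.0.16 (filterByExpr, TMM, quasi-likelihood test with a Benjamini-Hochberg adjusted p under 0.1 over 15645 genes, R 4.3.3), 2 GCE/GCE against 2 GCE/+ embryos, with standard errors from the F statistic. CPM used TMM library sizes. DESeq2 1.42.0 was an alternative. The fit was tested on simulated data. With 2 samples against 2, the smallest two-sided p of an exact permutation test is 0.333, and calls rest on a spread shared across genes. Floors of 3 counts cover counting error only.

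Lengths, gene order and coding sequences came from GENCODE M21 (GRCm38), which matched 45 members, and promoters from RefSeq (GRCm38.p6). No coordinate was converted from mm9. Alignments used Biopython 1.88. Tested members with a mean of at least 1 CPM, or called, are named with all values, the others by counts or by their range. Members, lists and tests were chosen with earlier results of these data known. A few results are not reported here. Alternatives comprised normalization, filters, the replicate number as a block, another threshold and leaving out samples.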

Additional observations from a re-analysis of the deposited data

How the results depend on the processing

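The log2 fold change of H2-T10 lay between -3.32 and -2.92 under all 11 alternatives fitted over all genes. H2-T10 was called lower, and 0 members higher, under each alternative that kept all 4 samples. These fits reuse the samples in which the fall had been seen, so they describe the processing and add no test. Members called lower numbered 1 in the main analysis, 3 with DESeq2 and 1 to 5 when 1 sample was left out, where the 5 include H2-Q10, which did not pass the main filter. Over all genes, 285 calls became 508 with DESeq2, 127 without the filter on low counts, 130 at an adjusted p under 0.05, and 199 to 961 with 1 sample left out. With the replicate number as a block, 290 genes and 1 member were called. The labels give only a shared number, and deviations of same-numbered samples correlated at 0.0231 across 13468 genes. Leaving out 1 sample moved the median log2 fold change of class I chains between -0.55 and -0.27, of class II chains between -0.07 and 0.57 and of accessory genes between -0.31 and -0.12. The cause was not tested. Of 141 fold changes of 14 named members under alternatives, 128 moved by less than their standard error. Of the 13 others, 12 came from leaving out a sample and 1 from summing H2-T10 with H2-T22 and H2-T9 (-2.05). Ordering members by CPM instead of CPM per kb replaced H2-DMa by Tap1 among the 10 highest. The 12 members with counts that did not pass the filter were not tested in the main analysis.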
